A study of Mus musculus with 6 samples.

Results

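These results concern 42 genes that were weakly expressed in the liver of pregnant mice and whose counts, scaled by library total, did not overlap between 2 diets. The series holds poly(A) RNA-seq of 6 livers of wild-type (WT) mice, 1 library each. The mice were female C57BL/6J animals, mated before the diets began. In the 3 PF libraries the mice were pregnant and fed a high-fructose diet (HFrD), and in the 3 PC libraries they were pregnant and fed normal chow (NC). Both groups share genotype and pregnancy, and no non-pregnant group was analysed here. The labels do not say whether the mice shared a litter, a mating day or a processing batch, so p-values measure only the spread between these 6 libraries.

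The members were chosen from the measured values. Counts were divided by the total of their library and multiplied by 1000000 (CPM). A gene was taken when its mean FPKM (a count scaled by exonic length and by the library total) over the 6 libraries was under 1, its summed count was at least 100, no PF value overlapped a PC value, and the means of the groups differed at least 4-fold. Genes of the Mup and Col families and Slc22a2 were left out, which removed 2 genes that met the rest of the rule. Of 56691 genes in the table, 2940 weak genes could have passed, and 42 did. Of these, 29 were higher in PF (0.986% of the 2940) and 13 were lower (0.442%). Since the rule used the difference between PF and PC, that difference is described below and no test of it is given as support.

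A liver is mostly hepatocytes, which devote much of their mRNA to a few secreted and metabolic proteins. Transcripts of other cells, such as lymphocytes, macrophages and endothelium, and genes best known from other organs are found at low levels in RNA of the whole tissue. A weak gene can be transcribed a little in every hepatocyte or strongly in few cells, and in bulk RNA fewer cells of a type and less RNA per cell cannot be told apart. HFrD is known to load the liver with fructose, which activates ChREBP, a transcription factor that binds carbohydrate response elements built from E-box motifs, and raises lipid synthesis.

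The E-box letters CACGTG, which read the same on both strands, were searched in promoter windows of RefSeq (build GRCm38.p6) that run from 250 bases before to 50 bases after the annotated start. Windows were found for 31 of the 42 members. The letters stood in 4 of 43 windows of members (9.30%) and in 7.15% of all 32851 windows. The 4 genes were Slc5a1, Plcxd1 and Ccdc151, which were higher in PF, and Cdh15, which was lower. They are shown because they are the members whose promoter holds the letters, with the E-box in capitals and 30 bases on each side.
Slc5a1: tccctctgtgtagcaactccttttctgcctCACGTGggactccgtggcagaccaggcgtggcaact
Plcxd1: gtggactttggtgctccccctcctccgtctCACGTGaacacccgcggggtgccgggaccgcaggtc
Ccdc151: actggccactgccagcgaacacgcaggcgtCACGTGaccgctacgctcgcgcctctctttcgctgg
Cdh15: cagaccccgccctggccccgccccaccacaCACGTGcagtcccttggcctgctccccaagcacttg
These stretches lie at chr5:33104046-33104111 and chr5:110100438-110100503 on the plus strand, chr9:22002736-22002801 on the minus strand and chr8:122848312-122848377 on the plus strand, in that order. A match is a description of the letters and not a bound site.

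The windows of the coding genes with the largest ratio in each direction are shown for comparison, each from 250 bases before the start up to it, with CCAAT boxes (CCAAT, or ATTGG on the other strand) in capitals. Dnaic1 was the member lowest in PF relative to PC, and its window at chr4:41569544-41569793 on the plus strand held none of the motifs searched. Plekhd1 was the member highest in PF, and its window at chr12:80692351-80692600 on the plus strand held 2 CCAAT boxes.
Dnaic1: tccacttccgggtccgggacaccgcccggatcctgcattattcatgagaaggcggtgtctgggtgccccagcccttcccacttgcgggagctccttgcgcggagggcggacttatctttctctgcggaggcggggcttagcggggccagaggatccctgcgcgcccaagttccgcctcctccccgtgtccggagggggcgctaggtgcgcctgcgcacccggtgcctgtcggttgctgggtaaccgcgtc
Plekhd1: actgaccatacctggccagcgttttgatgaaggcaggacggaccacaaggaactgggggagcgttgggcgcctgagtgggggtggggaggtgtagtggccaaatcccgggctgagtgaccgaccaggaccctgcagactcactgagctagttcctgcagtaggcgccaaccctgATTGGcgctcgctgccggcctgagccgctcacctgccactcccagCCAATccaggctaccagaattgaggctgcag
CCAAT boxes stood in 39.5% of the members' windows and in 37.4% of all windows. The other motifs searched on both strands were the nuclear receptor half-site AGGTCA, in 4.65% of the members' windows and 16.3% of all, the HNF4A core CAAAGTC, in 4.65% and 4.44%, and the TATA box TATAAA, in 9.30% and 13.6%.

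The libraries held 16119145 to 19676361 counts, and 3 counts came to between 0.152 and 0.186 CPM. Hepatocyte markers were abundant in each library, so the labelled tissue was borne out by its markers. The Alb share was 7.97% in PF1, 15.8% in PF2, 7.56% in PF3 and 18.1% to 19.9% in PC, while mitochondrial transcripts took 10.0% to 15.3% in PF and 5.03% to 9.69% in PC. These shares moved with the diet, and scaling by column totals placed the median gene above 0, at a log2 ratio of 0.41 over the 13296 genes with a summed count of at least 100 and 0.55 over the weak genes. With this scaling, weak genes whose 3 PF values all lay above the 3 PC values made up 33.1% of the 2940, against 1.94% for the opposite order. After TMM scaling, which centres the bulk of genes, the same rule took 13 higher and 19 lower genes, 26 of them among the 42, in place of 29 and 13.

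The plot of all weak genes shows where the members stood. The larger part of the weak genes lay close to the median, and the members lay far from it on both sides, among 23 further weak genes that reached the ratio with overlapping groups.

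**Figure D1:**
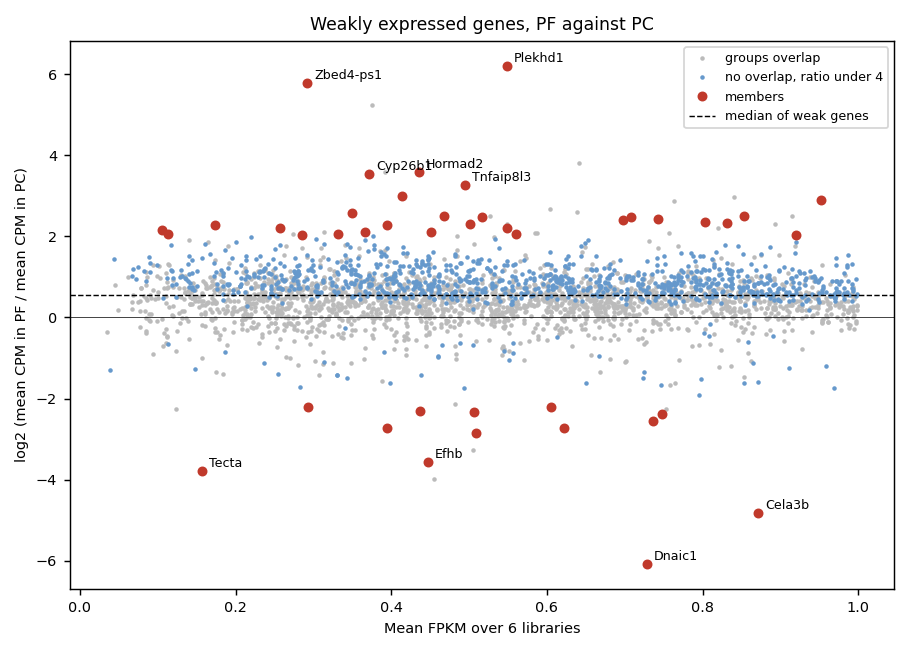
Each point is 1 of the weakly expressed genes, with its mean FPKM over 6 libraries on the x axis and the log2 ratio of the mean CPM in PF to the mean CPM in PC on the y axis; grey points have overlapping groups, blue points do not overlap but differ less than 4-fold, and red points are the members. The dashed line marks the median of the weak genes at 0.55, the 29 members above it lie between 2.03 and 6.21, and the 13 members below it lie between -6.07 and -2.22.

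The members' counts were small, with summed counts of 100 to 583 and a median of 203.5, so each value rests on few fragments. Protein-coding genes made up 31 of the 42. The 11 others were 4 antisense RNAs, 3 lincRNAs, 2 pseudogenes, 1 sense intronic RNA and 1 unvalidated transcript (TEC). Non-coding or pseudogene members were 26.2% of the set, against 14.6% of the weak genes. The members lay on 16 chromosomes and no pair lay within 100 kb. Their median exonic length was 3962 bases, against 5382 bases over the weak genes.

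In an edgeR quasi-likelihood test over the 13296 genes, 1 gene (0.00752%) had a Benjamini-Hochberg adjusted p under the threshold of 0.05, and 2167 (16.3%) had an unadjusted p under it. Of the 42 members, 1 was called after adjustment and 42 had an unadjusted p under the threshold, and nothing is read from these counts because the rule used the same contrast. DESeq2 called 545 genes (4.1%) and 26 of the members. Its adjusted p was not given for Cela3b. The plot of the members by library gives their values, and the sections that follow take them by what the genes are known for, in groups that were formed after the members were known.

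**Figure D2:**
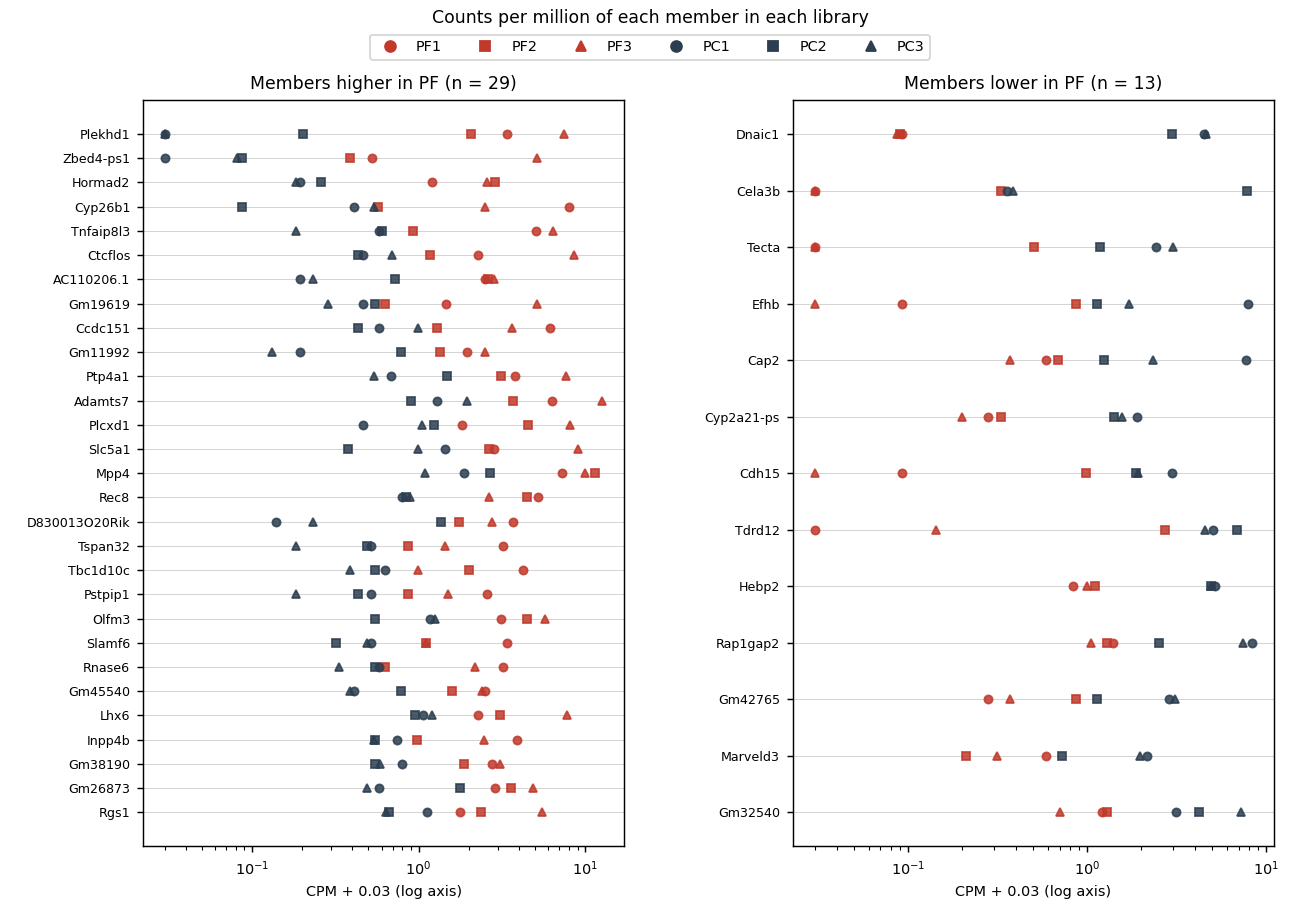
CPM of each member in each of the 6 libraries on a log axis, after adding 0.03 so that values of 0 can be drawn; red marks are PF, dark marks are PC, and the circle, square and triangle are libraries 1, 2 and 3 of each group. In the left panel (29 members higher in PF) the PF2 square is the lowest red mark for 18 members, and in the right panel (13 members lower in PF) it is the highest red mark for 10.

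Genes of cilia and flagella included the member lowest in PF. Motile cilia beat through dynein arms on their microtubules, and the adult hepatocyte is not known to carry them. Dnaic1, an intermediate chain of the outer dynein arm, had 1 count in each PF library (0.0620, 0.0596 and 0.0565 CPM) and 82, 51 and 90 counts in PC (4.47, 2.94 and 4.57 CPM). The PC libraries lay close to each other and far from every PF library. The pooled counts were 68.0-fold higher in PC, with a 95% counting interval of 23.0 to 332. In the edgeR fit over all genes its log2 fold change was -6.29 with an adjusted p of 0.0104, on the same contrast that chose it. No gene was called with a replicate block or without PF3, PC1 or PC3. Dnaic1 was also the 1 member on a list of sex-biased and growth-hormone-driven genes. Of the 53 genes of that list with a summed count of at least 100, 20 had a higher mean in PF and 33 a lower. Their median log2 ratio was -0.43, beside 0.41 over all genes. In 4 of the 53 all PF values lay above PC and in 11 below. Over all 13296 genes with that summed count, 34.7% lay above without overlap and 2.38% below. The part of this list in the level of Dnaic1 was not tested.

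The same stretch of the genome holds other genes that were lower in PF. Dnaic1 (chr4:41569775-41638158, GRCm39, plus strand) overlaps Enho on the opposite strand, the gene of the secreted peptide adropin. Enho had 3.23, 3.34 and 1.58 CPM in PF and 25.9, 14.6 and 29.9 CPM in PC. Its groups did not overlap either and its mean was 8.65-fold higher in PC. Near Dnaic1 on its own strand, the antisense RNA Gm12405 had 1 count in each PF library and 22, 17 and 41 counts in PC. Gm12406, also an antisense RNA on that strand, had 4, 3 and 0 counts in PF and 14, 6 and 37 in PC. Fam219a, 237 bases away on the opposite strand, overlapped between the groups, with a mean 1.32-fold higher in PF. Whether reads were counted by strand is not given in the sources used here. Without that, reads of Dnaic1 and of Enho cannot be told apart where the genes overlap.

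Of the other cilia genes, Ccdc151, which helps dock the outer dynein arms, was higher in PF, at 6.08, 1.25 and 3.61 CPM against 0.546, 0.404 and 0.966 CPM in PC. The ratio of the means was 5.72, and 3.81 without PF1. Efhb, an EF-hand protein of sperm flagella, had 1, 14 and 0 counts in PF (0.0620, 0.835 and 0 CPM) and 144, 19 and 33 counts in PC (7.86, 1.10 and 1.68 CPM). PF2 came near PC2, and PC1 stood far above the other PC libraries. The mean of Efhb was 11.9-fold higher in PC, and 4.64-fold higher without PC1. The family of dyneins, kinesins, myosins and cilia genes held 63 weak genes. Of these, 1 was a higher member (Ccdc151) and 1 a lower member (Dnaic1), beside 1.43% of all weak genes past the rule. Efhb is outside that family list.

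Germ cell and meiosis genes stood on both sides. Hormad2, a HORMA-domain protein of meiotic chromosome axes, had 1.18, 2.86 and 2.54 CPM in PF and 0.164, 0.231 and 0.152 CPM in PC. All PF libraries lay far above the PC libraries, which held 3, 4 and 3 counts. The pooled ratio was 12.2-fold (95% counting interval 6.42 to 26.2). Rec8, the meiotic kleisin subunit of cohesin, had 5.15, 4.47 and 2.60 CPM in PF and 0.764, 0.808 and 0.864 CPM in PC, a ratio of 5.02. The PC values of Rec8 lay close together and no PF value came near them.

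Ctcflos, a transcript antisense to the germline CTCF paralogue Ctcfl, had 2.23, 1.13 and 8.58 CPM in PF and 0.436, 0.404 and 0.661 CPM in PC. Its ratio was 7.96, and 3.36 without PF3, which was the highest library. Ctcfl itself was not apart, at 0.682, 0.656 and 1.36 CPM in PF and 1.09, 0.808 and 0.966 CPM in PC. Tdrd12, a tudor-domain protein of the piRNA pathway that silences transposons in germ cells, was lower in PF, with 0, 45 and 2 counts (0, 2.68 and 0.113 CPM) against 92, 118 and 89 counts in PC (5.02, 6.81 and 4.52 CPM). PF1 and PF3 had almost no counts, whereas PF2 lay between them and the PC libraries. The log2 ratio was -2.55 over all libraries, -6.59 without PF2 and -1.96 without PF1.

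The leukocyte group held 6 members, all of them higher in PF. It was formed after the members were known, and among all weak genes without overlap 973 were higher and 57 lower, so nothing is read from that count. Slamf6 is a receptor on T, B and natural killer cells, Rgs1 curbs G protein signalling in lymphocytes, and Tbc1d10c (carabin) restrains calcineurin and Ras in them. Tspan32 is a tetraspanin of blood cells, Pstpip1 an adaptor of the cytoskeleton in blood cells, and Rnase6 a secreted antimicrobial ribonuclease of macrophages. Their summed level was 18.2, 7.63 and 12.5 CPM in PF1, PF2 and PF3 and 3.71, 2.83 and 2.03 CPM in PC1, PC2 and PC3. The groups did not overlap, as the rule requires of each gene. The single ratios were between 4.08 (Rgs1) and 4.90 (Tspan32).

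PF1 was the highest library for 5 of the 6. Slamf6 had 3.35, 1.07 and 1.07 CPM in PF and 0.491, 0.288 and 0.457 CPM in PC, a ratio of 4.44 that was 2.60 without PF1. Tbc1d10c had 4.22, 1.97 and 0.960 CPM in PF and 0.6002, 0.519 and 0.356 CPM in PC, a ratio of 4.84 that was 2.98 without PF1. Tspan32 had 3.16, 0.835 and 1.41 CPM in PF and 0.491, 0.461 and 0.152 CPM in PC, a ratio of 4.90 that was 3.05 without PF1. PF2 and PF3 thus lay nearer to PC than PF1 did for these genes.

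Rgs1 differed from the others in being highest in PF3. It had 1.74, 2.33 and 5.48 CPM in PF and 1.09, 0.635 and 0.610 CPM in PC, a ratio of 4.08 that was 2.61 without PF3. Pstpip1 had 2.54, 0.835 and 1.47 CPM in PF and 0.491, 0.404 and 0.152 CPM in PC, and Rnase6 had 3.16, 0.596 and 2.15 CPM in PF and 0.546, 0.519 and 0.305 CPM in PC. For Rnase6, PF2 and PC1 were 10 counts each and differed only through the totals of their libraries. After TMM scaling each of the 6 was under 4-fold, at 3.08 (Rgs1) to 3.64 (Tbc1d10c).

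Marker lists of leukocytes moved in part with these members. The list of T and NK cell markers summed to 39.1, 25.8 and 25.1 CPM in PF and 15.5, 15.9 and 9.71 CPM in PC, with none of its 23 genes at 0 in every library. Of its 10 genes with a summed count of at least 100, 10 had a higher mean in PF and 5 did not overlap. The median log2 ratio of these was 1.06, beside 0.41 over all genes, of which 34.7% lay higher in PF without overlap and 2.38% lower. Dendritic cell markers summed to 26.3, 21.5 and 27.6 CPM in PF and 11.8, 14.6 and 12.7 CPM in PC. B and plasma cell markers were high in PF1 alone, at 240.8 CPM, with 62.4 and 49.3 CPM in PF2 and PF3 and 62.1, 86.7 and 39.7 CPM in PC. Markers of neutrophils and of Kupffer cells and macrophages overlapped between the groups. The part of these cells in the levels of the members was not tested.

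**Figure D3:**
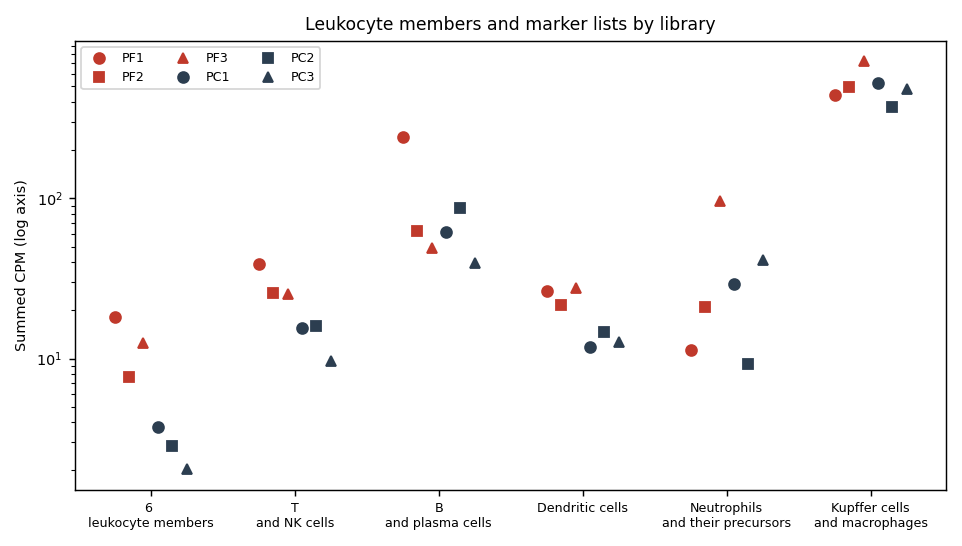
Summed CPM on a log axis of the 6 leukocyte members and of 5 marker lists, with 1 mark per library (red PF, dark PC, shapes as library numbers). The members, the T and NK cell list and the dendritic cell list do not overlap between the groups, PF1 stands alone at 240.8 CPM in the B and plasma cell list, and the lists of neutrophils and of Kupffer cells and macrophages overlap.

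Genes best known from the nervous system and the senses held 3 higher members and 1 lower. Mpp4, a scaffold protein of photoreceptor synapses, had the most counts of any member, at 7.20, 11.4 and 9.88 CPM in PF and 1.86, 2.65 and 1.07 CPM in PC. The groups stood well apart and the ratio was 5.11. Mpp4 overlaps the antisense RNA Gm29017, which was 2.72-fold higher in PF.

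Olfm3, an olfactomedin of brain and eye, had 3.10, 4.47 and 5.70 CPM in PF and 1.15, 0.519 and 1.22 CPM in PC, a ratio of 4.60. Lhx6, a LIM-homeobox factor of cortical interneurons, had 2.23, 3.04 and 7.79 CPM in PF and 1.04, 0.923 and 1.17 CPM in PC. PF3 carried much of the difference of Lhx6, whose ratio of 4.18 was 2.53 without it. Tecta, which encodes the tectorin of the gel over the sensory cells of the inner ear, was lower, with 0, 8 and 0 counts in PF (0, 0.477 and 0 CPM) and 44, 20 and 59 counts in PC (2.40, 1.15 and 3.00 CPM). Its counts were absent from PF1 and PF3 and present in PF2, and the pooled ratio was 14.1-fold toward PC (95% counting interval 6.91 to 33.3).

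Genes of phosphoinositide and small GTPase signalling held 5 higher members and 1 lower. Plekhd1, named for a pleckstrin homology domain of the kind that can bind membrane lipids, had 54, 34 and 132 counts in PF (3.35, 2.03 and 7.45 CPM) and 0, 3 and 0 counts in PC (0, 0.173 and 0 CPM). It was close to absent in PC and present in each PF library, with PF3 highest. The pooled ratio was 80.2-fold, with a 95% counting interval of 27.1 to 391.9, and the ratio of means was 46.6 without PF3. Tnfaip8l3 (TIPE3), a carrier protein for phosphoinositides, had 5.03, 0.894 and 6.38 CPM in PF and 0.546, 0.577 and 0.152 CPM in PC. Its ratio was 9.65, and PF2 lay near the PC libraries.

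The 3 other higher members of the group were Ptp4a1, Plcxd1 and Inpp4b. Ptp4a1, the phosphatase PRL-1, had 3.78, 3.10 and 7.68 CPM in PF and 0.655, 1.44 and 0.508 CPM in PC, a ratio of 5.59. The annotation gives this symbol to a second identifier on the same strand that overlaps it and whose groups overlapped, so the split of reads between both is uncertain. Plcxd1, a protein with a phospholipase C catalytic domain, had 1.80, 4.53 and 8.02 CPM in PF and 0.436, 1.21 and 1.02 CPM in PC, a ratio of 5.39 that was 3.56 without PF3. Its E-box is printed above. Inpp4b, an inositol polyphosphate phosphatase, had 3.85, 0.954 and 2.43 CPM in PF and 0.709, 0.519 and 0.508 CPM in PC, a ratio of 4.16. Without PF1 this ratio was 2.92, and after TMM scaling it was 3.03.

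Rap1gap2, which switches off the small GTPase Rap1, was the lower member of this group, at 1.36, 1.25 and 1.02 CPM in PF and 8.29, 2.48 and 7.37 CPM in PC. The PF libraries lay close together, and PC2 lay nearest to them. The mean was 4.99-fold higher in PC, and 4.07-fold without PC1. This gene stayed past 4-fold under each scaling and without each library in turn.

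Transporters, enzymes and matrix genes held 3 higher and 2 lower members. Slc5a1, the sodium-glucose cotransporter of the intestine and kidney known as SGLT1, had 2.79, 2.62 and 9.04 CPM in PF and 1.42, 0.346 and 0.966 CPM in PC. PF3 stood apart from the other PF libraries, and the ratio of 5.29 was 2.98 without it. It was the only 1 of 53 weak solute carriers in the set, beside 1.43% of all weak genes past the rule. Cyp26b1, a cytochrome P450 that clears retinoic acid, had 8.003, 0.537 and 2.48 CPM in PF and 0.382, 0.0577 and 0.508 CPM in PC. PF2 and PC3 held 9 and 10 counts and were ordered by the totals of their libraries. The ratio of 11.6 was 4.78 without PF1, and after TMM scaling the groups overlapped. Adamts7, a secreted metalloproteinase of the extracellular matrix, had 6.33, 3.64 and 12.6 CPM in PF and 1.25, 0.865 and 1.93 CPM in PC, a ratio of 5.58 that was 3.69 without PF3.

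Hebp2, a heme-binding protein of the SOUL family, had the least spread among the lower members with more than a few counts in PF. It had 13, 18 and 17 counts in PF (0.806, 1.07 and 0.960 CPM) and 94, 84 and 96 counts in PC (5.13, 4.85 and 4.88 CPM). The means were 0.947 ± 0.134 CPM in PF and 4.95 ± 0.155 CPM in PC (SD, n = 3), with no library between the groups. The mean was 5.23-fold higher in PC and stayed past 4-fold under each scaling and without each library.

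Cela3b, a digestive elastase of the exocrine pancreas, owed its place to 1 library. It had 0, 5 and 0 counts in PF and 6, 134 and 7 counts in PC, so PC2 alone was high and PC1 and PC3 lay next to PF2. Its mean was 28.2-fold higher in PC, and 3.44-fold higher without PC2. Of 23 pancreas markers, 12 were at 0 in every library, among them the trypsinogen Prss1, the lipase Pnlip and both insulin genes. The list summed to 5.31 to 10.8 CPM in PF and 5.79 to 15.5 CPM in PC, with Cela3b itself in that sum, and Cela1 was its most abundant gene in each library except PC2.

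The actin and junction genes held 3 members, and all 3 were lower in PF. This group too was formed after the members were known, so nothing is read from that count. Cdh15, or M-cadherin, an adhesion molecule of muscle precursors, had 1, 16 and 0 counts in PF (0.0620, 0.954 and 0 CPM) and 54, 32 and 37 counts in PC (2.95, 1.85 and 1.88 CPM). PF1 and PF3 were at or near 0, and PF2 was not. The log2 ratio was -2.72, and -6.16 without PF2. Cap2, which promotes actin turnover in muscle, had 0.558, 0.656 and 0.339 CPM in PF and 7.64, 1.21 and 2.29 CPM in PC. PC1 carried much of its difference, 7.17-fold toward PC and 3.38-fold without PC1. Marveld3, a tight junction protein, had 0.558, 0.179 and 0.282 CPM in PF and 2.13, 0.692 and 1.93 CPM in PC, a 4.66-fold difference. The 13 skeletal muscle markers were near 0 in each library, summing to 1.36 to 3.04 CPM in PF and 2.18 to 3.81 CPM in PC.

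The 11 members that are non-coding, pseudogenes or unnamed were 8 higher and 3 lower in PF. Zbed4-ps1, a processed pseudogene, had 8, 6 and 91 counts in PF (0.496, 0.358 and 5.14 CPM) and 0, 1 and 1 counts in PC (0, 0.0577 and 0.0508 CPM). Its pooled ratio was 57.4-fold, with a 95% counting interval of 15.5 to 480, and the ratio of means was 11.8 without PF3. It lies on the same strand as the sulfotransferase gene Sult2a5, which overlaps it and had 9.18, 0.358 and 19.7 CPM in PF and 0.437, 0.519 and 0.457 CPM in PC. Both were highest in PF3. Sult2a5 overlapped between the groups because PF2 was lower than PC.

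Among the higher members AC110206.1 had the least relative spread in PF, at 2.48, 2.56 and 2.82 CPM, against 0.164, 0.692 and 0.203 CPM in PC. The ratio was 7.43. It is antisense to Gpam, which encodes the enzyme that takes the opening step of glycerolipid synthesis and had 550.5, 489.1 and 1024 CPM in PF and 184.2, 311.6 and 230.8 CPM in PC. Gpam was 2.84-fold higher in PF and held far more counts than its antisense partner, and without the strand setting the reads of both cannot be told apart. Gm11992, a coding gene without a name, was at 1.31 to 2.48 CPM in PF and 0.102 to 0.750 CPM in PC, and the overlapping gene Sun3 on the other strand was 2.53-fold higher in PF. Gm19619 was at 0.596 to 5.14 CPM in PF and 0.254 to 0.519 CPM in PC, a ratio of 5.92 that was 2.51 without PF3.

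D830013O20Rik (1.73 to 3.66 CPM in PF and 0.109 to 1.33 CPM in PC), Gm45540 (1.55 to 2.48 and 0.356 to 0.750), Gm38190 (1.85 to 3.05 and 0.519 to 0.764) and Gm26873 (2.85 to 4.80 and 0.457 to 1.73) completed the higher members. The last 3 overlap Hpgd, Tiprl and Riok2, which had 1.51-fold, 1.47-fold and 1.98-fold higher means in PF. Gm38190 and Gm26873 were also the members nearest to the ratio limit after Rgs1, at 4.14 and 4.11.

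Of the lower ones, Cyp2a21-ps, a cytochrome P450 pseudogene, had 0.248, 0.298 and 0.169 CPM in PF and 1.86, 1.38 and 1.52 CPM in PC, a 6.66-fold difference with no library between the groups. It overlaps Cyp2a22 on the opposite strand, which had 285.1, 50.5 and 131.0 CPM in PF and 56.4, 137.4 and 71.4 CPM in PC. Those groups overlapped, with PF1 highest and PF2 below every PC library. It also overlaps the pseudogene Api5-ps on the opposite strand, at 0.124, 0.358 and 0.113 CPM in PF and 0.491, 0.519 and 0.915 CPM in PC, a mean 3.24-fold higher in PC. Pseudogenes of this family share sequence with their parents, and the assignment of reads among them is uncertain. Gm42765 was at 0.248 to 0.835 CPM in PF and 1.10 to 3.05 CPM in PC. Gm32540 was at 0.678 to 1.25 CPM in PF and 3.11 to 7.22 CPM in PC.

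Part of the set overlapped another gene. For 14 of the 42 members a gene with at least 10% of the member's counts overlapped its span, on the opposite strand for 9 members and on the same strand for 6. In 8 of them a partner was also at least 2-fold apart in the same direction. A further 11 members had such a gene only within 10 kb, and 17 had none. The same shares over all weak genes were not computed, so nothing is read from these counts. The plot of members and partners shows the pairs.

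**Figure D4:**
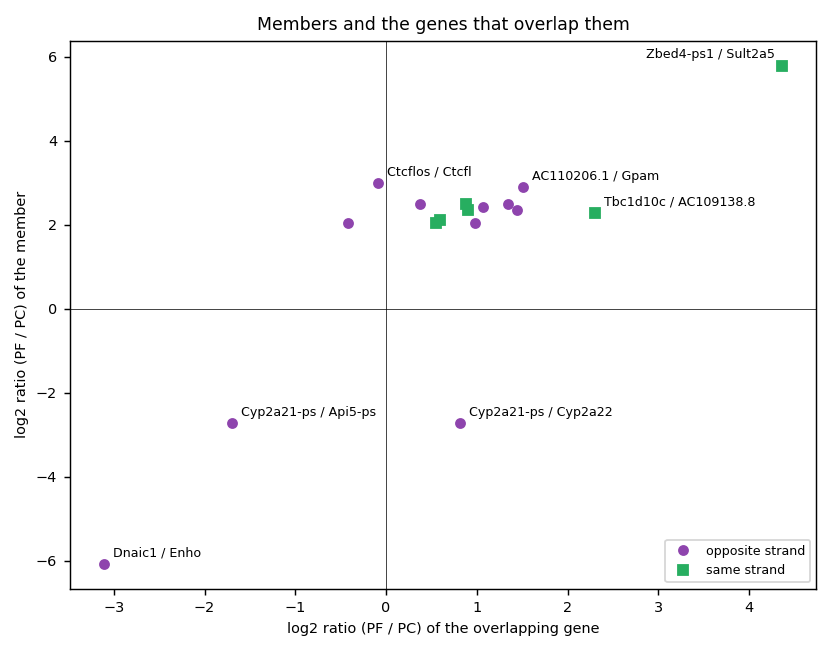
Log2 ratio of mean CPM (PF over PC) of each overlapping gene on the x axis and of the member it overlaps on the y axis, for genes with at least 10% of the member's counts; purple circles lie on the opposite strand and green squares on the same strand. Dnaic1 with Enho (-6.07 and -3.11) and Zbed4-ps1 with Sult2a5 (5.79 and 4.37) are the outermost pairs, while Cyp2a21-ps is drawn with Cyp2a22 (-2.73 and 0.82), whose groups overlapped, and with Api5-ps (-2.73 and -1.69).

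The libraries of a group did not contribute alike. Among the 29 higher members, PF2 was the lowest PF library in 18 (62.1%), against 58.7% of the 973 weak genes that were higher without overlap, and PF3 was the highest in 16 (55.2% against 34.4%). In 13 of the 29, PF2 was within 2-fold of the highest PC library. Among the 13 lower members, PF2 was the highest PF library in 10 (76.9% against 56.1% of 57 weak genes), and PC2 the lowest PC library in 10 (76.9% against 52.6%). PF2 was therefore the PF library nearest to PC, and PC2 the PC library nearest to PF for most lower members, among members and weak genes alike. PF2 also had the highest share of Alb in its group. Over all genes with a summed count of at least 100, its counts lay closer to those of PC2 than to those of PF1 or PF3.

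Left-out libraries changed the set. With the FPKM and count limits kept on all 6 libraries, the rule took 45 genes without PF1, 97 without PF2, 36 without PF3, 45 without PC1, 81 without PC2 and 46 without PC3, and 136 without PF2 and PC2. Of the 42, 16 remained past 4-fold whichever library was left out, 9 of them higher in PF. Without PF2 and PC2 all members but Olfm3 remained. The 13 members that remained under each scaling, with medians in place of means, with 0.1 CPM added to both means and without each library in turn were AC110206.1, Gm11992, Hormad2, Plekhd1, Tnfaip8l3 and Zbed4-ps1, which were higher in PF, and Cdh15, Cyp2a21-ps, Dnaic1, Efhb, Hebp2, Rap1gap2 and Tecta, which were lower.

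**Figure D5:**
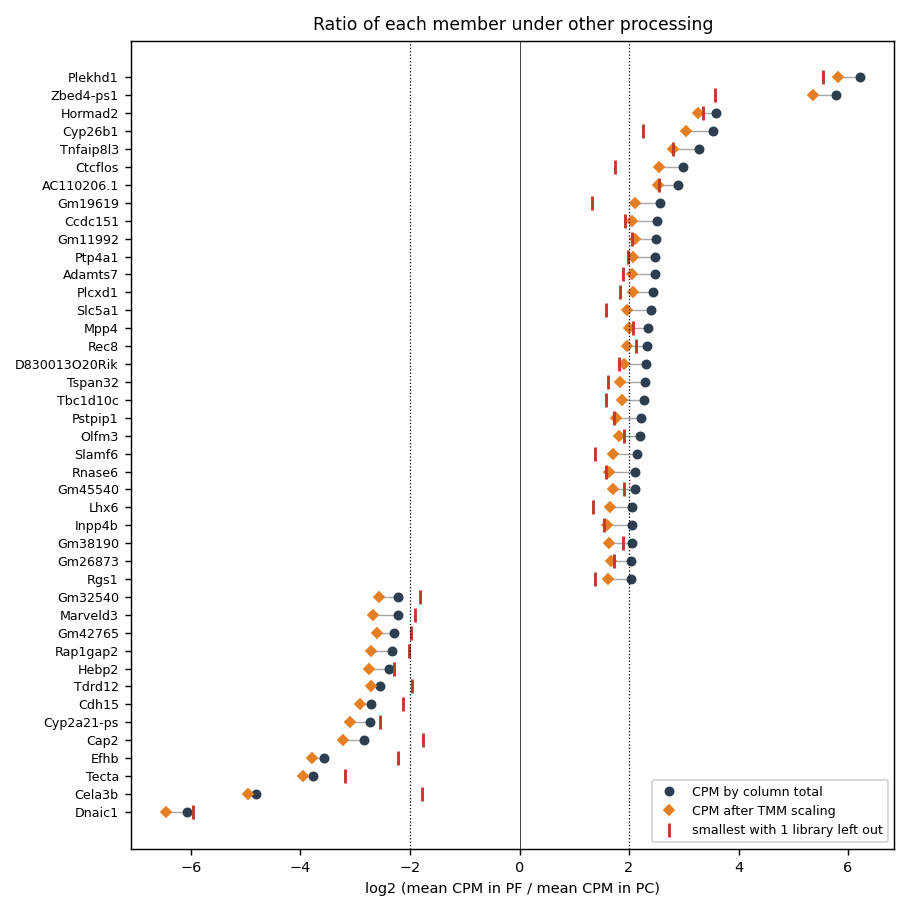
Log2 ratio of mean CPM (PF over PC) of each member by column totals (dark circles), after TMM scaling (orange diamonds) and with the single library left out that makes it smallest (red ticks); dotted lines mark the 4-fold limit. TMM scaling moves every member downward, so that 16 of the 29 higher members end within the limit or overlap while the 13 lower members move outward, and the tick of Cela3b falls to -1.78.

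The limits of the rule fell among genes of like values. Just inside the ratio stood Rgs1 at 4.08, Gm26873 at 4.11 and Gm38190 at 4.14, and just outside stood 4430402I18Rik at 3.997, Mid1 at 3.99 and Sbsn at 3.83. Just inside the FPKM limit stood AC110206.1 at a mean of 0.952 FPKM, and just outside stood Lipg at 1.002 FPKM, with 9.93, 4.23 and 10.2 CPM in PF and 1.31, 1.38 and 1.27 CPM in PC. Just inside the count minimum stood Pstpip1 and Cyp2a21-ps at 100, and just outside stood Ttc25 at 99. A further 23 weak genes reached the ratio with overlapping groups, led by Ntrk2 at 6.02, 0.298 and 36.0 CPM in PF and 0.491, 0.173 and 0.457 CPM in PC, where PF2 was as low as PC.

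The same rule applied at a mean of at least 1 FPKM took 57 higher (0.553%) and 30 lower (0.291%) of 10309 genes, so the share past the rule was 1.43% among the weak genes and under 1% among the stronger. Among families formed by symbol, the cytochromes P450 held 2 members of 4 weak genes, Cyp26b1 higher and Cyp2a21-ps lower, and no family held more than 2. Of 128 weak zinc-finger genes, 37 cytokines, chemokines and growth factors and 34 ion channels and receptors, none was a member. With 1.43% of all weak genes past the rule, few or no members fall in groups of these sizes. Nothing is read from the family counts.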

How the data were processed

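Per the labels and the study's methods, poly(A) RNA of 6 livers (PF 3, PC 3) was sequenced in paired reads. HTSeq 0.6.1, HISAT2 2.2.1, DESeq2, cutadapt 1.9.1 and build GRCm39 stand in the submitters' processing notes, and the strand setting is not given in the sources used here. The authors deposited raw counts and FPKM per gene; FPKM equalled counts over exonic length and column total within 0.01 in every value. Symbols and biotypes came from GENCODE (52073 of 56691 identifiers matched), promoters from RefSeq. Gene coordinates are those of the deposited table (GRCm39). The members and all lists, families and motifs were chosen with earlier results of these data known.

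CPM used column totals. Pooled ratios carry exact 95% intervals, which cover counting error only. All 13296 genes with a summed count of at least 100 were fitted with edgeR 4.0.16 under R 4.3.3. The fit used quasi-likelihood, TMM factors and two-sided tests, with Benjamini-Hochberg over all genes. DESeq2 1.42.0 and limma 3.58.1 (on log2 of FPKM plus 0.1 or 1) were alternatives. The edgeR fit alone was tried on simulated counts, with 50 changed genes at each fold. It recovered 22% at 2-fold, 84% at 4-fold, 100% at 8-fold and 98% at 16-fold, with 17 false calls. The changed genes were drawn from all 13296 at any count level, and the simulated libraries varied independently. Recovery was not measured for weak genes alone or with libraries that differ as these do, so these rates do not give the sensitivity for the members. Other alternatives were scalings, limits, a pseudocount, medians, a replicate block and each library left out.

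Genes with full values were chosen by rank of ratio, biotype, list, overlap and nearness to the limits, and the remaining members were added. No replicates agreed within sampling noise (chi-square per gene 26.0 to 213.9 within groups). PF2 was at 58.5 with PC2, 172.0 with PC3 and 183.2 with PC1, below its values of 197.7 with PF1 and 213.9 with PF3. PC2 was at 97.2 with PC1 and 92.4 with PC3, above its value with PF2. Some genes near or overlapping members are not reported here.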

Additional observations from a re-analysis of the deposited data

How the results depend on the processing

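Of 417 recomputed ratios of members, 398 moved by less than the spread between replicates and 19 moved by more. Of these, 0 changed direction, and 3 more had no value because a group mean became 0. Since the groups of a member do not overlap, leaving out 1 library or adding the same amount to both means cannot reverse its ratio. A scaling would have to shift it past the 4-fold limit, so nothing is read from the count of 0. The spread was a loose measure for noisy members, with a log2 SD of 2.52 for Tdrd12 and 0.188 for Hebp2. The number of genes the rule took was 42, and it was 21 at a mean FPKM under 0.5 and 65 under 2, 99 at a summed count of at least 50 and 22 at 200, 84 at a ratio of 3 and 25 at a ratio of 5. It was 32 under TMM scaling (40.6% of them higher in PF, against 69.0%). Leaving out 1 library gave 27 to 80 genes, where the count minimum also removes genes, and 36 to 97 (81 without PC2) with the limits kept on all 6 libraries, an alternative chosen after seeing the data. Leaving out PF2 and PC2 together, also chosen after seeing the data, gave 136.

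The number of genes called by edgeR was 1 and lay between 0 and 458 with 1 library left out, the highest without PF2. It was 298 with column totals in place of TMM factors (271 of them higher), 545 with DESeq2, 18 with limma on log2 of FPKM plus 0.1, 3 at a summed count of at least 10 and 555 with no filter on low counts. With a replicate block it was 0, with a smallest adjusted p of 0.0752. Same-numbered libraries had correlations of their deviations of -0.16, 0.26 and 0.086, so the replicate numbers were taken as names and not as pairs. The causes of these differences were not tested, apart from the filters, which change how many genes enter. At this depth a difference of a few counts, such as that between 9 and 10 counts, was not detectable.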

Other observations

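Just outside the FPKM and count limits of the set, the values of some genes outside it were as far apart as those of members. Tead2, a partner of the Hippo pathway coactivators, had 1.49, 2.44 and 1.75 CPM in PF and 10.8, 6.81 and 6.25 CPM in PC. Ttc25, a docking factor of ciliary dynein arms with 99 counts, had 0.806, 0.537 and 3.78 CPM in PF and 0.382, 0.115 and 0.0508 CPM in PC. These genes were named for their nearness to the limits.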
